A study of Drosophila melanogaster with 2 samples.

Results

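The NK genes are homeobox genes whose products bind DNA through a homeodomain. The 10 genes described here are CG15696, the gene whose protein was tagged, and its NK-type relatives tin, bap, lbe, lbl, C15, slou, NK7.1, Dr and lms. The rule names them by gene family and uses no measured value, but they were picked with earlier results of these data known. They are 10 of 13945 protein-coding genes on the 6 chromosome arms that carry peaks. Of the 10 genes, 6 lie in 1 cluster on arm 3R, in the order tin, bap, lbl, lbe, C15 and slou. CG15696, Dr and NK7.1 lie elsewhere on 3R, and lms lies on 2R. The material was chromatin from whole Drosophila melanogaster embryos of mixed sex aged 2 to 8 h, taken from a transgenic line that stably expresses CG15696 with GFP at its C-terminus. It was precipitated with an antibody to GFP and sequenced (ChIP-seq). There were 2 samples, biological replicates 1 and 3, in 1 group, so nothing was compared between conditions and no test was made. The line is a single transgenic strain, the embryo holds many cell types at once, and the driver of the transgene is not given in the sources used here.

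In flies, NK homeobox genes are best known from the mesoderm, where they give cells of the heart, gut muscle and body wall muscle their identity. tin is required for the heart and dorsal mesoderm, bap for the visceral mesoderm, and lbe and lbl, the ladybird pair, for subsets of heart and muscle cells. slou marks a set of muscle founder cells, lms acts in the lateral transverse muscles, and Dr (muscle segment homeobox) acts in the dorsal neuroectoderm and in muscles. C15 (clawless) is known from leg patterning. Homeodomains of this class commonly recognise a core of TAAT, while Tin and its nearest relatives recognise sites with the core AAGTG.

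The bases around 10 summits show the sequence at the strongest sites, at the tagged gene, and at sites with and without homeodomain-type letters. Each line gives 101 bases of the plus strand of dm6, read 5′ to 3′ and centred on a summit, the base that the authors' file marks as the highest point of a peak. Capitals mark every match, on either strand, of TAAT, of the longer homeodomain motifs TAATTA and of TAATTG, of TAATGA and of TAATGG, and of the Tin-type motifs CAAGTG and also TAAGTG. Motifs may overlap, and ATTA is TAAT on the other strand.
tin, upstream of the start site, chr3R:21378721-21378821: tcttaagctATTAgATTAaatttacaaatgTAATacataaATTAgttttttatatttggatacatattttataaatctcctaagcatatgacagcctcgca
C15, downstream, near sp3, chr3R:21520300-21520400: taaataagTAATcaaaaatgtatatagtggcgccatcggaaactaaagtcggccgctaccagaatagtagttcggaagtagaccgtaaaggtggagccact
lbl, intron, chr3R:21420091-21420191: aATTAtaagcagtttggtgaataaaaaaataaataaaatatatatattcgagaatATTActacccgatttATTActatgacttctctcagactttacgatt
CG15696, downstream, at RpS30, chr3R:20850531-20850631: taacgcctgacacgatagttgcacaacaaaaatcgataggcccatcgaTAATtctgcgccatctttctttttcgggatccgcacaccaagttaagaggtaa
lbe, upstream, chr3R:21450535-21450635: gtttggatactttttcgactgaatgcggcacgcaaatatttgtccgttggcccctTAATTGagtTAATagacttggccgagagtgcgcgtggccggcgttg
bap, downstream, pooled list, chr3R:21393492-21393592: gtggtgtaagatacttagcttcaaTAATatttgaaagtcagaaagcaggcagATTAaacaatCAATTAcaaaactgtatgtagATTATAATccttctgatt
NK7.1, intron, chr3R:14353840-14353940: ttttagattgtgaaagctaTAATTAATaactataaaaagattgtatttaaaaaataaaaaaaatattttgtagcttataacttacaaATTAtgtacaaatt
NK7.1, upstream, chr3R:14373445-14373545: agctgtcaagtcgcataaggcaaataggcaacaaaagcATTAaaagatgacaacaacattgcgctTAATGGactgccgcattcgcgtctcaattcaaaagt
Dr, upstream, chr3R:29550111-29550211: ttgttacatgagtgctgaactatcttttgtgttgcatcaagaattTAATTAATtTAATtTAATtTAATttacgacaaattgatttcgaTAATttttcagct
Dr, upstream, next site, chr3R:29548899-29548999: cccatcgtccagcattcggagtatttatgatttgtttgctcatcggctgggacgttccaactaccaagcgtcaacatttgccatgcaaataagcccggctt

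The letters differed widely between these windows, whose genome sequence is that of RefSeq. The tin window held several TAAT cores in a sequence of 23.8% GC, while the C15 window, at the strongest site of all these genes, held 1 TAAT core at 42.6% GC. The Dr window at 29550161 held a run of TAAT cores and a TAATTA, and the neighbouring Dr site at 29548949 held none.

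Of the 10 genes, 8 had at least 1 reproducible site, in the gene body or within 10 kb of it. A reproducible site here is a summit in the list that the authors name for the irreproducible discovery rate (IDR), and that list held the 5354 strongest peaks of the pooled list. The name does not mean that the replicates ranked a site alike. The share over all protein-coding genes was 64.7% (9026 of 13945), and the difference from it was not tested. The exceptions were bap and lms. In all there were 18 reproducible sites, all of them on 3R. NK7.1 had 6, Dr had 4, lbl and C15 had 2 each, and CG15696, tin, lbe and slou had 1 each. Over all protein-coding genes, at least 4 sites were found at 10.2% and at least 6 at 2.34%. The body of NK7.1 is long, and the territory searched there, body plus flanks, spanned 63.5 kb against a median of 22.2 kb over all genes. Per 100 kb of territory, NK7.1 had 9.44 sites and Dr had 13.9, against 4.04 over the whole arm 3R. All territories together, with overlaps counted once, had 18 sites over 285.1 kb, or 6.31 per 100 kb. NK7.1 and Dr are the genes with the most sites, so the density of the rest is lower by construction. The other 8 genes together had 8 sites over 193 kb, or 4.15 per 100 kb.

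The 18 sites were of ordinary strength. The authors gave each peak a signal value of unstated scale, which was used to rank peaks from 1, the strongest, to 5354, the weakest reproducible site. The median signal at the 18 sites was 253.6, against 259.2 over all 5354 sites, and 8 of the 18 ranked among the stronger 2677. The strongest sites were those of C15 (rank 204) and tin (rank 328), and the weakest was that of slou (rank 5185). How many reads stand behind a value is unknown, and each peak has 1 value per list with no error of its own.

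**Figure D1:**
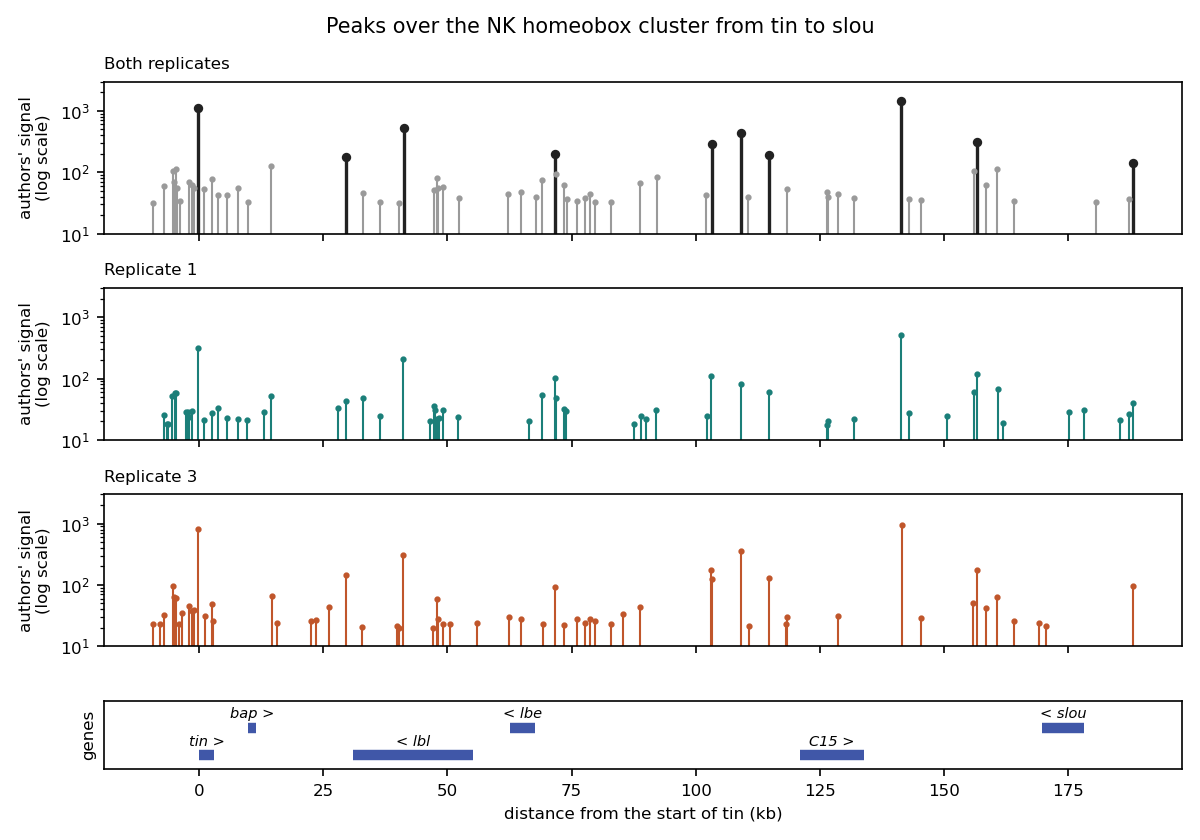
The authors' signal (log scale) of each peak against the distance in kb from the start of tin, from 10 kb before tin to 10 kb past slou, in the pooled list (top; black for reproducible sites, grey for other pooled peaks) and in the lists of replicate 1 and replicate 3; blue bars are the genes and arrowheads their direction. In each panel the highest peak is the one between C15 and slou (pooled signal 1438.8), followed by the one next to tin (1119.8).

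The tagged gene had 1 reproducible site, and it lay at the start of another gene. CG15696 (FBgn0038833) is a short plus-strand gene that spans 20847068 to 20847748 of 3R. The summit at 20850581 was 2833 bp past its end and 16 bp from a transcription start site (TSS) of RpS30, which encodes a protein of the small ribosomal subunit. The pooled signal was 233.8 (rank 2996). Replicate 1 gave this site a signal of 160.9 (rank 1484) and replicate 3 gave 74.4 (rank 5567), so it was much higher in the first list than in the second. When as many peaks as the IDR list holds were taken from replicate 3 alone, CG15696 had no site, and with replicate 1 alone it had 2.

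Closer to CG15696 itself the peaks were weak. Of 11 pooled summits in its territory, 1 lay in the body, at 20847383, with a signal of 36.1 (rank 25167 of 30000). That summit had a partner within 100 bp in replicate 3 (rank 18765) and none in replicate 1. Replicate 1 did have a summit in the body, at 20847207 (signal 18.0, rank 29128), but outside that limit. The strongest peak upstream was at 20845596, 1472 bp before the TSS, with a pooled signal of 118.0 (rank 6137), 48.6 in replicate 1 and 75.3 in replicate 3. In replicate 3 the partner of this upstream peak (rank 5490), and not the RpS30 site, was the strongest of the territory. The pooled list had 11 summits here against a median of 7 over all protein-coding genes. The RpS30 window held ATCGATA 2 times, once overlapping its TAAT; these letters are part of the DRE element of many housekeeping promoters. It was found in 1 of the 18 windows and in 2.75% of all reproducible ones, and was searched after the sequence had been seen.

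tin was the only one of the 10 genes with a reproducible site within 500 bp of its own start. tin spans 21378977 to 21381970 of 3R, plus strand. The peak covered 21378577 to 21378928, and its summit at 21378771 was 206 bp upstream of the TSS of tin. Its pooled signal was 1119.8 (rank 328), with 313.7 (rank 524) in replicate 1 and 804.6 (rank 280) in replicate 3. It was high in both replicates, with summits 29 bp and 10 bp from the pooled one. A reproducible summit within 500 bp of an own TSS was present at 21.4% of all protein-coding genes, and a site of this rank or higher in the territory at 9.01%. The window held CATATG, an E-box of the kind bound by Twist, and was the only one of the 18 to do so. CATATG lay in 5.1% of all reproducible windows and was searched after the sequence had been seen.

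The territory of tin also had many weak peaks. It held 17 pooled summits, and 5.88% of all protein-coding genes had as many. Per 100 kb this was 73.9 against 21.3 over the arm. Many of these peaks were weakly supported: their −log10 q values began at 0.118, and only the site next to tin reached 3.967. Some of the peaks overlapped, so the same stretch can be counted more than once. Most of the 17 summits lay upstream, in and around mod(mdg4), a gene for a family of chromatin proteins that is transcribed away from tin. The strongest of these were at 21374233 (signal 114.1, rank 6340) and at 21373663 (signal 102.6, rank 7087). The first had a partner in both replicates and the other in replicate 3 alone. For the latter, replicate 1 had a summit at 21373560 (signal 51.6, rank 6701), just past the limit of 100 bp. In the body of tin, a summit at 21381550 in a coding exon had a pooled signal of 77.4 (rank 9506), with 27.9 in replicate 1 and 49.0 in replicate 3.

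bap had no reproducible site, although its strongest peak was only just below the list. bap spans 21388880 to 21390449, plus strand. The peak with its summit at 21393542, 3093 bp past the end of the gene, had a pooled signal of 127.8 (rank 5653), and the lowest reproducible signal was 134.4. Replicate 1 gave it 52.2 (rank 6619) and replicate 3 gave 66.1 (rank 6239), so the replicates placed it alike. At the start of bap, a summit 108 bp upstream of the TSS had a pooled signal of 32.4 (rank 29015), among the weakest of the 30000. The window of the downstream peak held a TAATTG and several TAAT cores. When whole peaks were placed in place of summits, the edge of the tin peak reached the territory of bap, which then had 1 site.

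The ladybird genes lie next to each other and both on the minus strand, lbl from 21409979 to 21434133 and lbe from 21441577 to 21446537. The stronger site was in lbl, in an intron, with its summit at 21420141, 13992 bp downstream of the lbl TSS. The nearest TSS was that of the neighbouring gene CheB93b, 11018 bp away. This intron site had a pooled signal of 515.0 (rank 1182), with 206.6 (rank 1051) in replicate 1 and 309.2 (rank 1255) in replicate 3. It held nearly the same rank in both. The window was AT-rich, at 23.8% GC, with TAAT cores and none of the longer motifs.

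The other lbl site was less well supported. It lay 1405 bp past the end of lbl, at 21408574, and 549 bp from the TSS of CheB93b, a gene of a chemosensory protein family. Its pooled signal was 176.4 (rank 3999). Replicate 3 had a summit 4 bp away (signal 146.1, rank 2898), and replicate 1 had none within 100 bp. With a limit of 200 bp a partner was found there too, and this was the only one of the 18 sites to lack a partner at 100 bp. Without replicate 3, lbl had 1 site.

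lbe had 1 site, 4048 bp upstream of its TSS at 21450585, in intergenic sequence with no other TSS nearer. The pooled signal was 194.8 (rank 3621), with 101.4 (rank 2741) in replicate 1 and 92.1 (rank 4516) in replicate 3. Its window held the only TAATTG among the 18. A neighbouring pooled peak, with its summit at 21450784, had a signal of 94.3 (rank 7710) and a partner in replicate 1 alone. At the start of lbe, a pooled summit 263 bp upstream of the TSS had a signal of 39.2 (rank 22532) and a partner in neither replicate.

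The strongest site of the set was downstream of C15 and nearer to the neighbouring gene sp3. C15 spans 21499986 to 21512814, plus strand. The site spans 21520191 to 21520545, with its summit at 21520350, 7536 bp past the end of C15 and 578 bp from the TSS of sp3. It had a pooled signal of 1438.8 (rank 204), with 514.8 (rank 188) in replicate 1 and 930.7 (rank 215) in replicate 3, and it was high in both. The other C15 site lay 6267 bp upstream of the C15 TSS, at 21493719, with a pooled signal of 193.7 (rank 3648). It had 60.6 (rank 5412) in replicate 1 and 128.2 (rank 3303) in replicate 3, and without replicate 3 it was no longer among the sites of C15. The 4 pooled summits in the body of C15, all in introns, were weak, with signals from 38.3 to 46.9, and none had a partner in both replicates.

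slou, at the other end of the cluster (21548661 to 21557182, minus strand), had the weakest site of the set. It lay 9781 bp upstream of the slou TSS, at 21566963, and 2186 bp from the TSS of CG15498. Its pooled signal was 138.7 (rank 5185), just inside the list, with 40.7 (rank 9185) in replicate 1 and 94.3 (rank 4425) in replicate 3. In replicate 1 the strongest peak of the territory lay on the other side of the gene, at 21539764 (signal 68.0, rank 4626). The pooled peak there, at 21539682, had a signal of 111.5 (rank 6491). No pooled summit lay in the body of slou.

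Between the clustered genes there were 7 reproducible sites over 5 gaps that add up to 123.2 kb, or 5.68 per 100 kb against 4.04 for the arm. The gap from tin to bap (6.9 kb) and the gap from lbl to lbe (7.4 kb) held none. The gap from bap to lbl (19.5 kb) held the CheB93b site described above. The gap from lbe to C15 (53.4 kb) held 4 sites and the gap from C15 to slou (35.8 kb) held 2, so the longest gaps held most of them. In the pooled list the 5 gaps held 34 summits.

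Of these 7 sites, 3 lay more than 10 kb from every clustered gene. The strongest of them, between lbe and C15 at 21487969, had a pooled signal of 437.2 (rank 1445), with 81.8 (rank 3635) in replicate 1 and 354.3 (rank 1045) in replicate 3. It lay in intergenic sequence 12017 bp before C15 and 5644 bp from the TSS of Fancm, which encodes a DNA repair helicase. Another, at 21482127, was 198 bp from the TSS of Fancm (signal 288.2, rank 2372), with ranks of 2457 and 2452 in replicates 1 and 3. The last, at 21535538 between C15 and slou, had a signal of 306.7 (rank 2208), with ranks of 2184 and 2405, and its nearest TSS was that of sp3, 14610 bp away. These last 2 sites were placed alike by the replicates. From tin to slou the whole cluster spans 178.2 kb and held 8 reproducible sites, 4.49 per 100 kb. The 531.2 kb between CG15696 and tin held 28, or 5.27 per 100 kb.

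**Figure D2:**
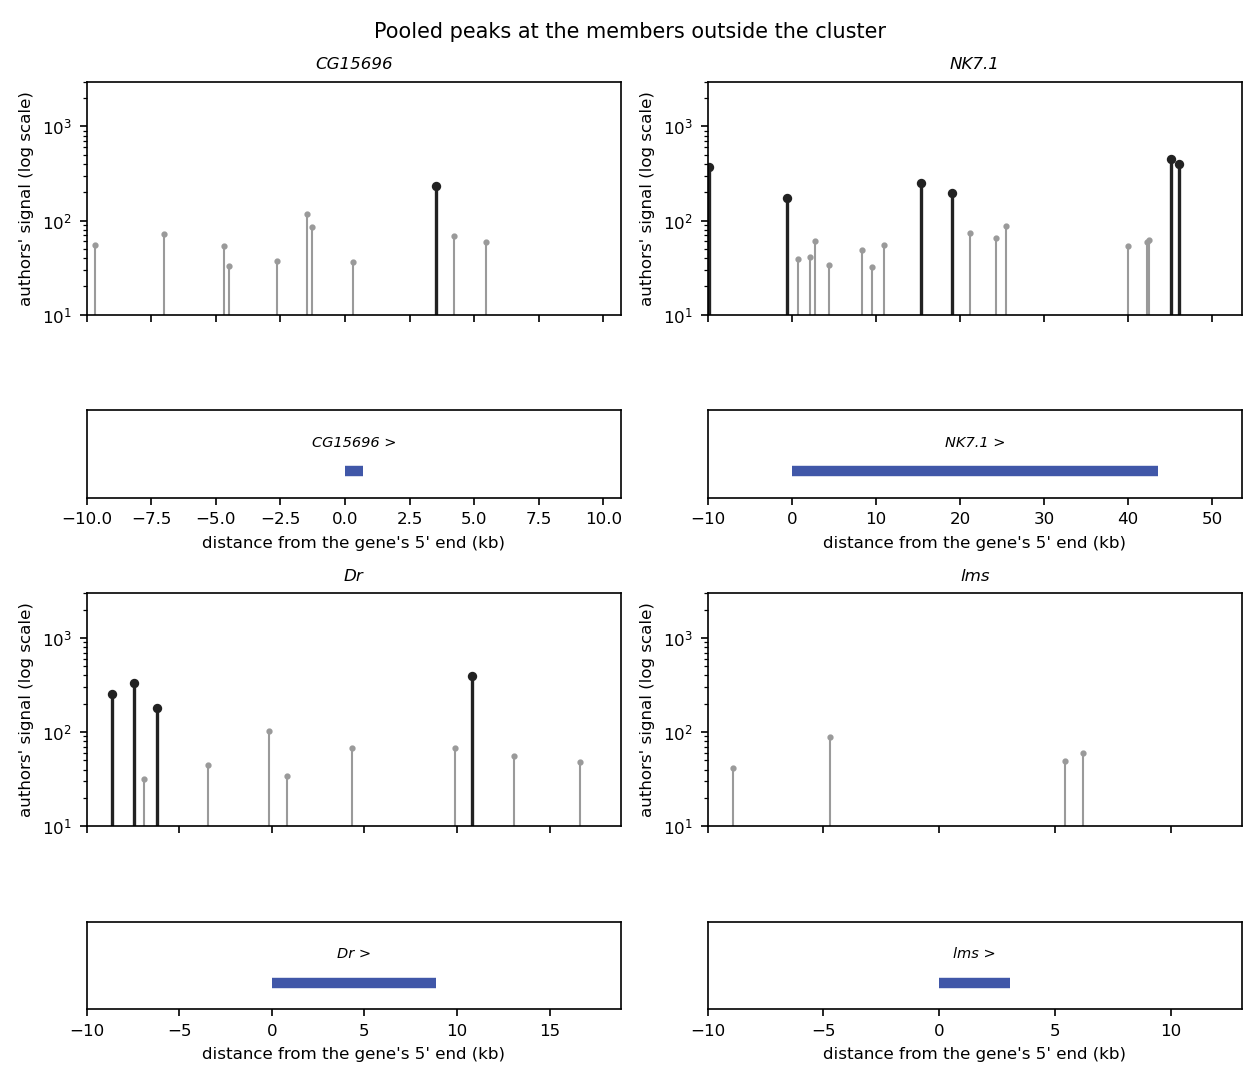
The authors' signal (log scale) of each pooled peak against the distance in kb from the 5′ end of CG15696, NK7.1, Dr and lms, in the direction of transcription, out to 10 kb on either side; black marks reproducible sites, grey other pooled peaks, and blue bars the genes. NK7.1 has 6 black marks, Dr has 4, CG15696 has 1 and lms has none.

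NK7.1 had the most sites, spread over its flanks and introns. NK7.1 spans 14329413 to 14372951, minus strand. The highest were at the starts of genes past its end. The first was at 14327866, 185 bp from the TSS of spn-B, a gene of meiotic recombination (signal 453.8, rank 1373). The next was at 14326944, 3 bp from the TSS of ATPsynE, which encodes an ATP synthase subunit (signal 400.2, rank 1613). Replicate 1 gave them 156.3 (rank 1541) and 94.6 (rank 2999), and replicate 3 gave 298.9 (rank 1313) and 311.7 (rank 1236). The ranks of the spn-B site were close in the replicates, and those of the ATPsynE site were further apart.

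The introns of NK7.1 held a pair of sites, at 14357581 and 14353890, 12236 bp and 15927 bp downstream of its nearest own TSS. A TSS of Dnaaf5, inside the body of NK7.1, was nearer to both, at 4205 bp and 7896 bp. The first site had a pooled signal of 253.3 (rank 2746), with 60.2 (rank 5466) in replicate 1 and 194.0 (rank 2155) in replicate 3. The other had a signal of 194.0 (rank 3639), with 59.7 (rank 5529) in replicate 1 and 131.2 (rank 3226) in replicate 3. Both stood higher in replicate 3. The window of the latter had the lowest GC content of the 18, at 14.9%, and held a TAATTA.

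Upstream of NK7.1, a site 544 bp before the TSS, at 14373495, had a signal of 172.4 (rank 4100), with 43.3 (rank 8420) in replicate 1 and 124.9 (rank 3383) in replicate 3. It held the only TAATGG among the 18 windows. The last site, at 14382766, was 9815 bp upstream and 1067 bp from the TSS of soti (signal 370.7, rank 1765), with ranks of 2419 in replicate 1 and 1604 in replicate 3. NK7.1 depended on replicate 3 in part: with replicate 1 alone it had 3 sites in place of 6.

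The sites of Dr lay on both sides of the gene and none in its body, which spans 29556386 to 29565244 on the plus strand. The TSS of Dr was the nearest one for all 4. The strongest was 1974 bp past the end, at 29567218, with a pooled signal of 389.3 (rank 1663), 110.9 (rank 2456) in replicate 1 and 275.2 (rank 1449) in replicate 3. The other 3 formed a group upstream, at 8614, 7437 and 6225 bp before the TSS. Their pooled signals were 253.8 (rank 2737), 333.2 (rank 1998) and 181.2 (rank 3896). In replicate 1 the middle one was the highest of the 4, at 183.2 (rank 1245). In replicate 3 it had 157.1 (rank 2691), close to its upstream neighbour at 152.4 (rank 2778). At the Dr start itself, a summit 140 bp upstream had a pooled signal of 103.0 (rank 7049), with 56.0 in replicate 1 and 44.7 in replicate 3, below the reproducible list. Dr had 4 sites from either replicate alone as well.

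lms, on 2R from 20556877 to 20559953, had the fewest pooled summits of the 10, and none was reproducible. The 4 pooled summits lay in its flanks and within 500 bp of a TSS of another gene. The strongest, 53 bp from the TSS of CG13430, had a pooled signal of 87.8 (rank 8337), with 53.2 (rank 6471) in replicate 1 and 34.5 (rank 12762) in replicate 3. The pooled density was 17.3 per 100 kb against 21.2 for the arm. Another of the 4, 90 bp from the TSS of CG43308, held TAATTA as well as TAATTG and TAAGTG within 50 bp (signal 59.9, rank 12775). Replicates 1 and 3 each had 7 summits in this territory.

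All 10 genes had a pooled summit within 10 kb, as did 90.7% of all protein-coding genes. The territories held 96 pooled summits, 78 of them weaker than the reproducible list. Of the 96, 40 (41.7%) had a partner within 100 bp in both replicate lists, 25 in replicate 1 alone, 24 in replicate 3 alone and 7 in neither. Over the whole pooled list the share with both was 41.2%, close to that at these genes. The 78 weaker summits lay mostly in introns (25), in intergenic sequence (23) and within 500 bp of a TSS (16), with 9 in coding exons.

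The reproducible sites had a partner in both replicates as a rule. The IDR list was itself derived from these replicates, so the match is no independent support. The full replicate lists hold 30000 peaks each, with −log10 q values down to 0.27 in replicate 1 and 0.02 in replicate 3. Of the 18, 17 had a partner within 100 bp in both full lists, against 94.3% of all reproducible sites. When only the 5354 strongest peaks of each replicate were used, 11 of 18 had a partner in both, against 72.7% of all. The ratio of signal in replicate 3 to that in replicate 1 had a median of 1.08 on the log2 scale (SD 0.74 over 17 sites) and ran from -1.11 at the RpS30 site to 1.72 at the ATPsynE site. Over all 5049 matched sites the median was 0.69, with quartiles of 0.23 and 1.09. With each list divided by its median signal at the matched sites, the medians were 0.46 at the 17 sites and 0.07 over all. Replicate 3 had the higher value at 14 of the 17 sites, against 83.1% of all. The exceptions were the site of CG15696, that of lbe (-0.14) and the middle upstream site of Dr (-0.22). The scale of the signal is not stated, so no single ratio tells a difference in binding from one of scale between the 2 lists. Ranks do not depend on a factor common to a list, and differences of rank between the replicates were not tested.

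**Figure D3:**
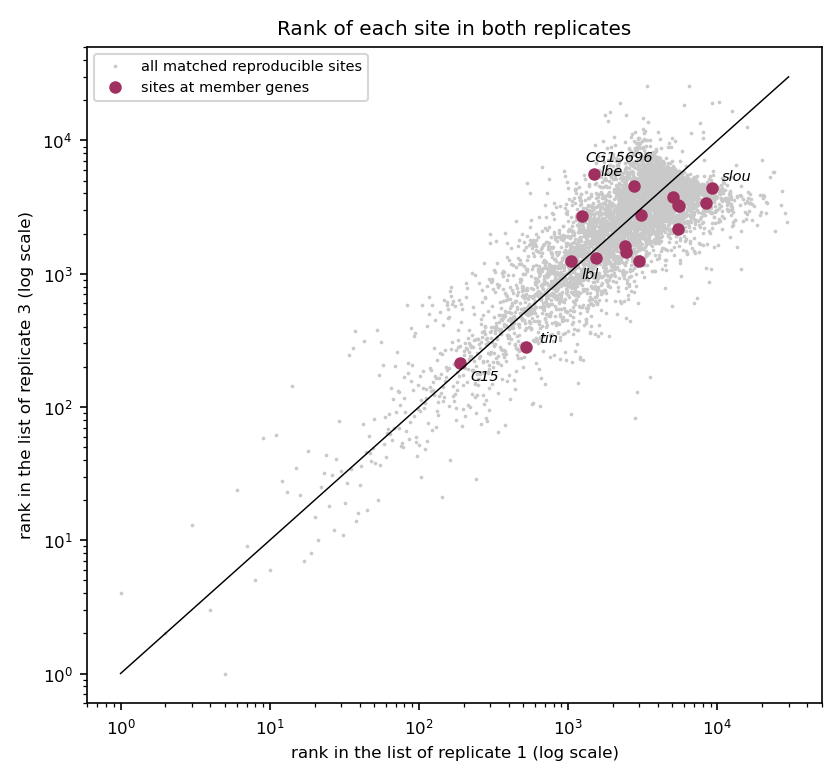
Rank of each reproducible site in the list of replicate 3 against its rank in the list of replicate 1 (both log scale; 1 is the strongest), for the 5049 sites matched in both (grey) and for the 17 of these at the member genes (red); the line marks equal rank. The C15 site (188 and 215) and the tin site (524 and 280) stand among the strongest in both, while the CG15696 site (1484 and 5567) lies far above the line.

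With promoters taken as 500 bp around a TSS, most sites of these genes lay outside them. Of 18 summits, 4 were within 500 bp of a protein-coding TSS, 3 in introns and 11 in intergenic sequence. Over all reproducible summits the shares were 41.9%, 34.0% and 19.9%. The summits 544 bp from a TSS of NK7.1, 549 bp from CheB93b and 578 bp from sp3 were counted as intergenic. They lay just past the limit, which was not varied, so the contrast in shares depends on it. Only the tin site was within 500 bp of a start of one of the 10 genes. The other 3 promoter sites were those of RpS30, spn-B and ATPsynE. The TSS of one of the 10 genes was the nearest for 8 of the 18 sites. By position along the gene, 9 sites were upstream, 3 in the body and 6 downstream. The difference in shares was not tested.

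Most of these sites held the core and few held a longer motif. The core TAAT lay within 50 bp of 16 of 18 summits, against 77.7% of all reproducible ones. TAATTA lay at 3 (10.6% of all), namely in the NK7.1 intron and at a pair of upstream Dr sites. TAATTG lay at 1 (10.9%) and TAATGG at 1 (4.65%). TAATGA (7.86%), CAAGTG (4.8%) and TAAGTG (6.41%) lay at none of the 18. Any of these 6 motifs lay at 5 of 18, against 37.7% of all. The windows had a median GC content of 27.7%, from 14.9% to 52.5%, against a median of 31.7% over all. A match is a match of letters and does not mark a bound site.

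The homeodomain of CG15696 differed from those of its relatives at many positions. Over the 60 residues, translated from the annotated coding sequence and located by the pattern of their recognition helix, CG15696 was most like Dr (51.7% identical) and slou (48.3%). It was least like tin, C15 and NK7.1, each at 38.3%. For comparison, tin and bap were 58.3% identical and lbe and lbl 91.7%. Of the 19 other NKL class genes, the one most like CG15696 was HHEX, at 46.7%, and the least like were en and inv, each at 33.3%. The gene with the most similar homeodomain, Dr, had 4 sites in its territory, slou had 1 and HHEX had none. Among the least similar of the 10, NK7.1 had 6, C15 had 2 and tin had 1. A relation between similarity and number of sites was not tested.

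Most genes of the same homeobox class, and most genes of heart, mesoderm and muscle, also had a site; these lists too were drawn up with earlier results known. Of the 19 other NKL genes, 14 (73.7%) had a reproducible site within 10 kb, and of 20 heart, mesoderm and muscle genes 17 (85.0%), beside 64.7% of all genes. The 6 strongest sites among the NKL genes were those of CG11085 (signal 795.9), ro (747.8), bsh (690.5), H2.0 (384.3), vnd (326.6) and inv (314.7). Those of vnd, which patterns the ventral neuroectoderm, and H2.0 were 90 bp and 295 bp from their own TSS. The ro site had the TSS of T48 as its nearest, at 4758 bp. The sites of CG11085 and bsh were at starts of the neighbouring genes CG2540 and CG10628. scro, Dbx, en, HHEX and CG34031 had none.

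Several of the mesodermal genes had stronger sites than tin. The territory of Mef2, the muscle differentiation factor, held a site of signal 3884.9, at the TSS of its neighbour Pal1. It was followed by zfh1 (1845.7), Doc2 and Doc3, T-box genes of the heart and dorsal ectoderm that share a site (1648.8), Poxm (1144.1) and bin (999.1), which encodes a visceral mesoderm factor and stood just under tin. The nearest TSS to the shared Doc2 and Doc3 site was that of CG5194, 2113 bp away. H15, Kr and ap had no reproducible site. The lists were not tested against each other. Median territories were 26.7, 27.6 and 26.3 kb for the 10 genes, the NKL list and the mesodermal list, against 22.2 kb over all genes. By the median, more sequence was thus searched per gene in these lists than over all genes.

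**Figure D4:**
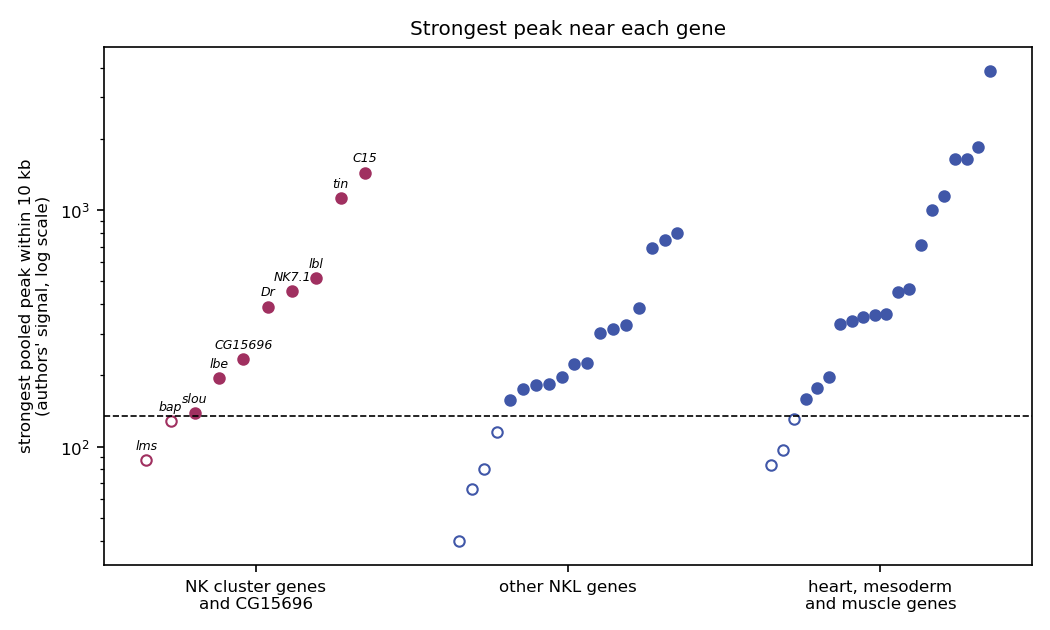
Signal of the strongest pooled peak in the body or within 10 kb (log scale) for each of the 10 genes (red), of the other NKL genes and of the heart, mesoderm and muscle genes (blue), ordered within each list; filled points have a reproducible site, open ones have none, and the dashed line is the lowest reproducible signal (134.4). C15 and tin stand highest among the 10, bap lies just under the line, and scro, with no pooled peak, is not drawn.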

How the data were processed

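The deposited peak lists, on dm6 per the labels, came from ChIP-seq of 2 samples in 1 group. Per the notes deposited with the files, the authors made peak lists for each replicate and for both together, each with 1 control file, and derived the IDR list from these 3. Each deposited list gives a signal and a −log10 q value per peak, of which only the signal was used to rank and count peaks. In the pooled list the −log10 q values went down to 0.114, so presence in that list is weak support by itself. Neither the caller with its version nor the IDR cutoff is given in the sources used here, nor is the signal's scale. The read depth is unknown, so no interval can be given. The IDR list held the 5354 strongest peaks of the pooled list of 30000.

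Summits were the peak start plus the offset in the file, written 1-based. Genes came from Ensembl release 115 and bases from the RefSeq copy of Release 6. A summit within 500 bp of a protein-coding TSS was a promoter site. Summits were matched between lists within 100 bp, and motifs were searched within 50 bp on both strands. Python 3.11.15, pandas 2.3.3 and numpy 2.4.6 were used. Counting and matching were tested on simulated data. No group comparison and no test was made. The genes named are the 10 members, genes with the TSS nearest to their sites, and up to 6 of each other list by signal, with those that had none. The genes and lists were chosen with earlier results of these data known. The list symbol CG7056 was matched to HHEX by its locus tag.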

Additional observations from a re-analysis of the deposited data

How the results depend on the processing

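Counts depended most on the distance and the list chosen. With 2 kb around the body, 4 of the 10 genes had a reproducible site, 8 sites lay in their territories, and 5 of the other NKL genes and 12 of the 20 mesodermal genes had one, against 37.2% of all protein-coding genes. With 5 kb there were 11 sites in the territories. With the nearest TSS alone 5 of the 10 genes had a site (23.8% of all genes), and within 500 bp of an own TSS 1 had (21.4%). Among the 2677 stronger sites the counts were 5 genes, 8 sites, 7 other NKL genes, 14 mesodermal genes and 4 sites between clustered genes, and 46.8% of all genes had a site. The whole pooled list gave 96 sites in the territories and 34 between clustered genes. With the strongest peaks of each replicate only, 11 of the 18 sites had a partner in both (72.7% of all). With 100 bp to either side of the summit, 10 of 18 sites held one of the 6 longer motifs, against 59.6% of all reproducible sites. The shares over all genes or sites were computed after the data were seen. The wider windows and longer lists hold more sites by construction.

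With 1 replicate left out, 7 to 8 of the 10 genes had a site, with 14 to 18 sites in their territories and 6 to 8 between clustered genes. The range was 14 to 15 for the 19 other NKL genes and 16 to 17 for the 20 mesodermal genes. Over all protein-coding genes, 65.9% had a site without replicate 1 and 63.1% without replicate 3. CG15696 lost its site without replicate 1, and NK7.1 had 3 in place of 6 without replicate 3. No paired analysis was possible because there was 1 group. Unknown depth limits all of these values.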
